A study of Homo sapiens with 12 samples.

Results

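The respiratory chain subunits were taken from the gene count table of the series as the protein-coding genes whose names start with MT-, NDUFA, NDUFB, NDUFC, NDUFS, NDUFV, SDHA to SDHD, UQCR, COX4 to COX8 or ATP5, without the NDUFAF and SDHAF assembly factors. This gave 104 genes of 58721, of which 13 lie on the mitochondrial genome and 91 in the nucleus. RNA-seq was performed on iDox-shGOT1 cells, in which doxycycline (dox) switches on an shRNA that targets GOT1, in Pa-Tu-8902 (labelled Tu8902) and MIA PaCa-2, both human pancreatic cancer lines. There were 3 untreated and 3 plus-dox libraries of each line, 12 in all, and dox was given for 5 days. All groups carry the hairpin construct, and which GOT1 hairpin was sequenced is not given in the sources used here. No dox-treated cells without the hairpin were sequenced, so dox itself and the loss of GOT1 cannot be told apart. Nothing in the labels says that replicates came from separate cultures, so the p-values measure only the spread between these libraries.

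The respiratory chain passes electrons from NADH and succinate to oxygen through complexes I to IV, and complex V, the ATP synthase, uses the resulting proton gradient to make ATP. Complex II is encoded wholly in the nucleus, whereas the other complexes combine nuclear subunits with core subunits made inside the mitochondrion on its own ribosomes. Doxycycline, as a tetracycline, is known to inhibit those ribosomes, so any comparison with dox carries that exposure too. Human mitochondrial DNA is transcribed as long precursors that are cut into separate RNAs, and MT-ND6 is the only mRNA read from the light strand.

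Several mitochondrial mRNAs share or touch bases, which limits how reads can be assigned to single genes. The following stretches of GRCh38, plus strand, are shown because they mark where the values of neighbouring mRNAs are not independent. Capitals mark bases that belong to both genes. Reads over the 46 shared bases of MT-ATP8 and MT-ATP6 (chrM:8507-8592), the 7 of MT-ND4L and MT-ND4 (chrM:10740-10786) and the 1 of MT-ATP6 and MT-CO3 (chrM:9187-9227) have more than 1 possible source. MT-ND5 and MT-ND6 abut end to end on opposite strands (chrM:14129-14168).
MT-ATP8 and MT-ATP6: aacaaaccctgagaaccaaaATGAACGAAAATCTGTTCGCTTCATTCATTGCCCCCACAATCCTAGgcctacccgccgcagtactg
MT-ND4L and MT-ND4: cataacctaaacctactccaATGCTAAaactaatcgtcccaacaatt
MT-ATP6 and MT-CO3: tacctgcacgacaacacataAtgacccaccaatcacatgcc
MT-ND5 and MT-ND6: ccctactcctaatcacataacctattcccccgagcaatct
The libraries were strand-specific, but the counting was run with default parameters of RSEM, and use of strand is not stated. Reads of MT-ND6 and of RNA from the opposite strand therefore cannot be told apart here. MT-ND6 mRNA is also known to lack the long poly(A) tail of the other mitochondrial mRNAs, and these libraries were selected for poly(A).

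Libraries held 26226537 to 43406137 counts. GOT1 fell from between 3956 and 4519 normalized counts to between 146.0 and 192.0 in Pa-Tu-8902 (log2 fold change -4.64 ± 0.09, SE, n = 3 per group, edgeR adjusted p = 1.51e-09), and from between 2075 and 2341 to between 69.3 and 95.4 in MIA PaCa-2 (-4.76 ± 0.11, adjusted p = 1.06e-09). The summed level of 7 pancreatic epithelial markers was 9290 to 10400 TPM in untreated and 8020 to 9040 TPM in plus-dox Pa-Tu-8902, a sum made up mostly of keratins. Single markers moved in other directions, with EPCAM at 543 to 553 TPM untreated and 645 to 699 TPM with dox and MUC1 at 65.1 to 72.4 and 129 to 132 TPM. In MIA PaCa-2 the sum was 2730 to 3070 TPM, KRT7, EPCAM and CDH1 were at or below 1.26 TPM, and KRT19 went from between 384 and 413 to between 128 and 132 TPM. Acinar, leukocyte and endothelial marker sums stayed at or below 4.19 TPM. The fibroblast marker sum was 3.47 to 6.38 TPM untreated and 18.0 to 21.7 TPM with dox in Pa-Tu-8902, nearly all of it COL1A1, and its part in the results was not tested.

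A pair of libraries stood apart for the subunits. Plus-dox replicate 2 of Pa-Tu-8902, the deepest library, was the lowest of its 3 for 12 of 13 mitochondrial mRNAs and the highest for 68 of 84 nuclear ones (81.0%, against 36.0% of all genes tested). Untreated replicate 2 of MIA PaCa-2 was the highest of its 3 for 80 of 82 nuclear subunits (97.6%, against 39.4% of all genes tested). In each of these libraries, the median gap between gene length and RSEM's effective length, which follows the fragment length, was the smallest of its line, at 233.2 bases (244.6 to 265.9 in the other Pa-Tu-8902 libraries) and 239.4 bases (251.6 to 273.3 in the other MIA PaCa-2 libraries). Nuclear subunit genes and mitochondrial mRNAs are both short, with median lengths of 789.7 and 784 bases against 2187 for all genes tested in Pa-Tu-8902. The part of fragment length in the results was tested only through offsets of effective length, and results that rest on a library that stood apart are given with and without it.

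In the text, a gene was called when edgeR's adjusted p was below 0.01 with a fold change of at least 1.5, and was past the adjusted p when only the first held. Rose and fell are used of genes past the adjusted p. Normalized counts are scaled within a line and are not comparable between genes or lines. TPM, which accounts for gene length, is used for those comparisons. Of the 104 genes, 97 reached 10 counts in 3 or more libraries of Pa-Tu-8902, and 95 did so in MIA PaCa-2.

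Before treatment, the chain was expressed at similar total levels in both lines, and the median level per gene was higher for mitochondrial than for nuclear mRNAs. Mitochondrial mRNAs summed to 20400 ± 2650 TPM (SD, n = 3) in Pa-Tu-8902 and 21600 ± 2240 TPM in MIA PaCa-2, and nuclear subunit mRNAs to 25400 ± 449 and 25400 ± 1820 TPM. The median level in untreated Pa-Tu-8902 was 1460 TPM over the 13 mitochondrial mRNAs and 224.8 TPM over the 84 tested nuclear ones. Within the mitochondrial set, MT-ATP8 was the highest at 5109 TPM and MT-ND5 the lowest at 199.2 TPM, below the nuclear median. MT-ATP8 is a very short gene that overlaps MT-ATP6, so its level per length is the least certain.

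With dox, the tested subunits of Pa-Tu-8902 leaned upward, by a median of 0.51 on the log2 scale over mitochondrial mRNAs and 0.10 over nuclear ones. Of 97 tested, 73 were higher with dox, and the median of all 97 was 0.11 against 0.0014 over all genes tested. In all, 3 were called up (9.22% of all genes tested were called up) and 0 down (7.12% of all genes). The 3 were ATP5MC2, MT-ND3 and MT-ND2. Past the adjusted p alone, 16 rose (19.0% of all genes) and 3 fell (19.1% of all genes), and 44 had an unadjusted p below 0.05 (45.4%, against 56.6% of all genes). The groups did not overlap for 35 of the 97, or 36.1%, against 58.5% of all genes. Without plus-dox replicate 2, 68 of 97 were higher, with a median of 0.08. The nuclear median was then 0.06, with 55 of 84 higher against 60 with all libraries, and the mitochondrial median was 0.72. In that fit 24 rose and 3 fell past the adjusted p, or 27.8% against 35.7% of all genes.

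In MIA PaCa-2 the nuclear subunits leaned downward, with a median of -0.11 on the log2 scale and 26 of 82 higher with dox. The mitochondrial mRNAs did not, with a median of 0.05 and 8 of 13 higher. Of 95 tested, 34 were higher with dox, and the median of all 95 was -0.09 against -0.0089 over all genes tested. Only MT-ND6 was called up (4.36% of all genes were called up), while NDUFB5, ATP5MC1, NDUFB1 and ATP5MD were called down (7.64% of all genes). Past the adjusted p alone, 4 rose (12.6% of all genes) and 10 fell (14.7% of all genes), and the groups did not overlap for 35 of the 95, or 36.8%, against 52.9% of all genes. Without untreated replicate 2 the downward lean was not seen, with 56 of 95 higher and a median of 0.03, and only MT-ND6 and NDUFB5 were called. More subunits were then past the adjusted p, 15 up and 18 down, or 34.7% against 36.6% of all genes in the same fit.

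**Figure D1:**
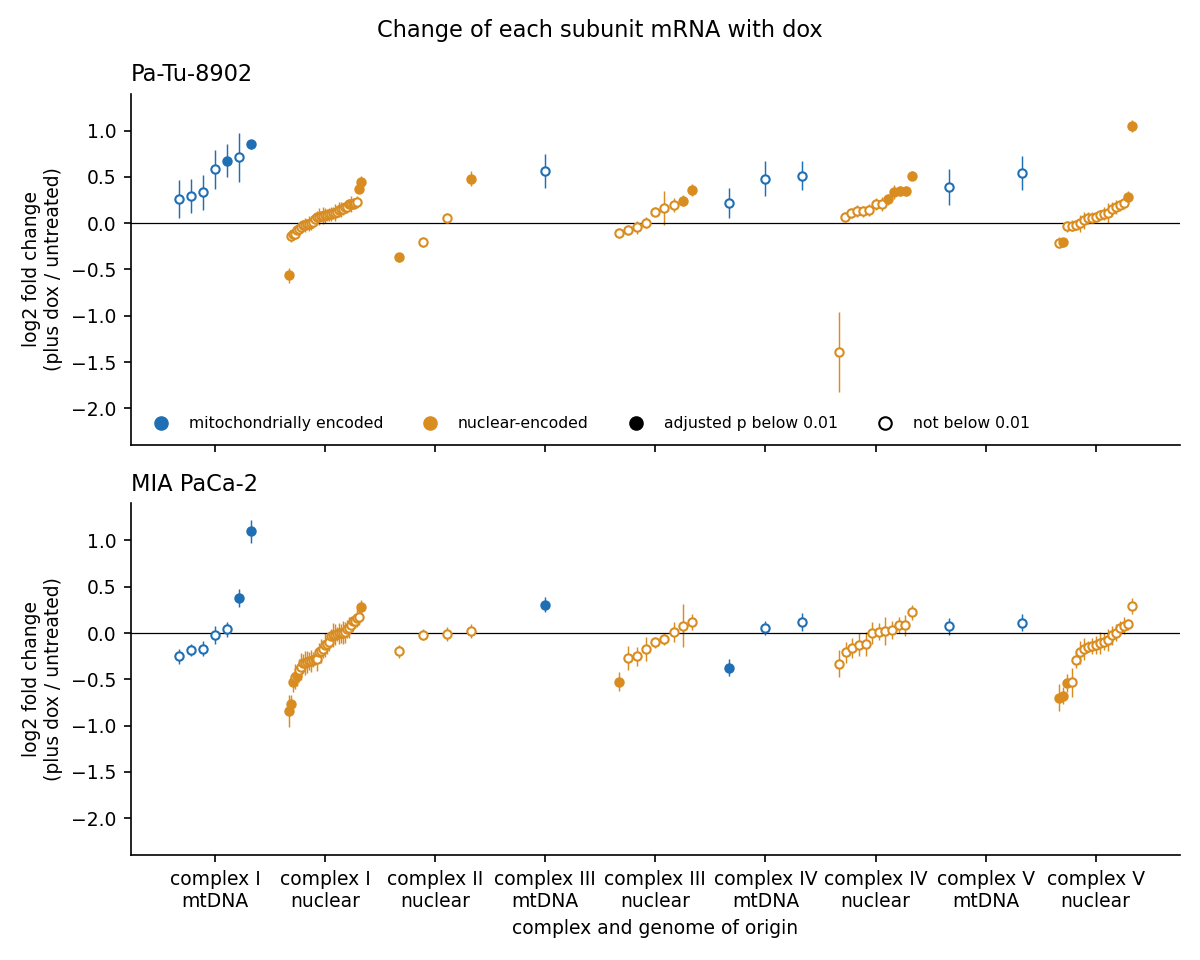
Log2 fold change of each tested subunit mRNA (plus dox over untreated, vertical axis) by complex and genome of origin, with standard errors, in Pa-Tu-8902 (top) and MIA PaCa-2 (bottom), leaving out the read-through genes. Filled points are past the adjusted p of 0.01, and all 13 mitochondrial mRNAs lie above 0 in Pa-Tu-8902, where 2 of them are filled.

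In Pa-Tu-8902 all 13 mitochondrial mRNAs were higher with dox on average, with log2 fold changes from 0.22 to 0.85 and a median of 0.51. The median was 0.31 without plus-dox replicate 1 and 0.72 without plus-dox replicate 2. Their share of all counts was 0.712%, 0.741% and 0.562% in the untreated libraries and 1.27%, 0.671% and 1.00% in the plus-dox libraries, a ratio of means of 1.46. Plus-dox replicate 2 thus lay inside the untreated range, whereas the other plus-dox libraries lay above it. In bulk RNA, fewer cells of a kind and less RNA per cell cannot be told apart, nor can more of either. The share in MIA PaCa-2 was 0.817%, 0.834% and 0.818% untreated and 0.781%, 0.815% and 0.946% with dox, a ratio of 1.03, with overlapping groups.

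MT-ND3, a core membrane subunit of complex I (chrM:10059-10404), separated the groups most clearly. It had 4581, 4615 and 4609 normalized counts in untreated and 8535, 8427 and 7942 in plus-dox Pa-Tu-8902, so every treated library lay far above every untreated one, replicate 2 included. The log2 fold change was 0.85 ± 0.05 (1.80-fold, adjusted p = 2.12e-07). In MIA PaCa-2 MT-ND3 had 2947, 2827 and 2355 counts untreated and 2372, 2788 and 2862 with dox, with overlapping groups and a log2 fold change of -0.02 ± 0.09 (adjusted p = 0.892). The difference between the lines was itself past the threshold, at 0.87 ± 0.11 (adjusted p = 1.8e-05).

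MT-ND2, also a core subunit of complex I, rose in both lines, each time close to the threshold. Its counts were 27229, 28825 and 21484 untreated and 52354, 28890 and 42575 with dox in Pa-Tu-8902, where replicate 2 was only just above the highest untreated library. The log2 fold change was 0.68 ± 0.18 (adjusted p = 0.00926), which DESeq2 put at an adjusted p of 0.025. In MIA PaCa-2 the counts were 19233, 16698 and 16663 untreated and 19865, 22130 and 26248 with dox, a log2 fold change of 0.38 ± 0.10 (adjusted p = 0.00999). MT-ND2 was no longer past the adjusted p with effective lengths as offsets in either line (0.0134 and 0.0233). Leaving out any single library but plus-dox replicate 2 also lost the Pa-Tu-8902 call (adjusted p from 0.0143 to 0.0365), and in MIA PaCa-2, where it was under 1.5-fold and so not called, it was no longer past the adjusted p without untreated replicate 1 or 3 or plus-dox replicate 2 or 3 (0.0103 to 0.0558).

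MT-ND6 (chrM:14149-14673, minus strand), a complex I subunit, had the largest rise of the chain in MIA PaCa-2. It had 547, 749 and 820 normalized counts in the untreated libraries and 1447, 1613 and 1467 in the plus-dox ones, so the groups were well apart. The log2 fold change was 1.10 ± 0.12 (2.14-fold, adjusted p = 3.76e-05), and it was 1.14 without untreated replicate 2. In Pa-Tu-8902 the counts were 2320, 2459 and 1307 untreated and 4650, 2270 and 3058 with dox, which overlapped, with a log2 fold change of 0.71 ± 0.26 (adjusted p = 0.0417). The difference between the lines, -0.39 ± 0.32, did not pass (adjusted p = 0.417). Untreated Pa-Tu-8902 had more MT-ND6 than untreated MIA PaCa-2, by 1.41 ± 0.23 on the log2 scale (adjusted p = 2.71e-05).

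The remaining 4 complex I core mRNAs, MT-ND1, MT-ND4, MT-ND4L and MT-ND5, did not pass in either line with all libraries. In Pa-Tu-8902 MT-ND1 came closest, with 17245, 18617 and 13004 counts untreated and 32031, 15916 and 25309 with dox (0.58 ± 0.21, adjusted p = 0.0384). In MIA PaCa-2 MT-ND4 came closest, at 35219, 37125 and 34613 counts untreated and 27900, 28472 and 33412 with dox, and here the values with dox were the lower ones (-0.25 ± 0.08, adjusted p = 0.0205). MT-ND4L and MT-ND5 had log2 fold changes of 0.26 and 0.33 in Pa-Tu-8902 and of -0.18 and -0.17 in MIA PaCa-2. Without untreated replicate 2 of MIA PaCa-2, 3 of these were past the adjusted p and lower with dox, namely MT-ND4 (-0.23, adjusted p = 0.00459), MT-ND4L (-0.24, adjusted p = 9.21e-04) and MT-ND5 (-0.23, adjusted p = 0.00429). In that fit 7 of the 13 mitochondrial mRNAs were past it in either direction (53.8%, against 36.6% of all genes). MT-ND4 also passed in MIA PaCa-2 under DESeq2 (adjusted p = 0.00548), without a filter on low counts (0.00173) and without plus-dox replicate 3 (0.00501).

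MT-CYB, the mitochondrially encoded core of complex III, rose in MIA PaCa-2, with 10404, 11392 and 11305 counts untreated and 12429, 13270 and 15268 with dox (0.31 ± 0.08, adjusted p = 0.00953). In Pa-Tu-8902 its log2 fold change was 0.56 ± 0.19 (adjusted p = 0.0273). In MIA PaCa-2 it was under 1.5-fold, and was not past the adjusted p with effective lengths as offsets (0.0201) or without untreated replicate 1 or 3 or plus-dox replicate 2 or 3 (0.0185 to 0.0544). MT-CO2, a catalytic core subunit of complex IV, fell in MIA PaCa-2, from 25925, 28074 and 22373 to 18701, 18356 and 21882 counts (-0.37 ± 0.09, adjusted p = 0.0076), again under 1.5-fold, and did not pass with the offsets (adjusted p = 0.0216) or without untreated replicate 1 or plus-dox replicate 1 or 2 (0.028 to 0.035). In Pa-Tu-8902 MT-CO2 had the smallest change of the 13, 0.22 ± 0.16 (adjusted p = 0.283).

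MT-CO1 and MT-CO3, the other complex IV core subunits, had log2 fold changes of 0.48 and 0.51 in Pa-Tu-8902 (adjusted p = 0.0505 and 0.0187) and of 0.12 and 0.05 in MIA PaCa-2. MT-ATP6 and MT-ATP8, membrane subunits of complex V, had 0.54 and 0.39 in Pa-Tu-8902 (adjusted p = 0.03 and 0.12) and 0.11 and 0.07 in MIA PaCa-2. None of these 4 passed in either line. Without plus-dox replicate 2, 11 of the 13 mitochondrial mRNAs were past the adjusted p in Pa-Tu-8902 (35.7% of all genes were, in that fit) and 8 of them were called (15.2% of all genes), among them MT-ND1 (0.83), MT-CYB (0.79), MT-ATP6 (0.76), MT-CO1 and MT-CO3 (both 0.72). MT-ND2 was then at 0.89 and MT-ND6 at 0.94, while MT-ND3 hardly moved, at 0.86.

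**Figure D2:**
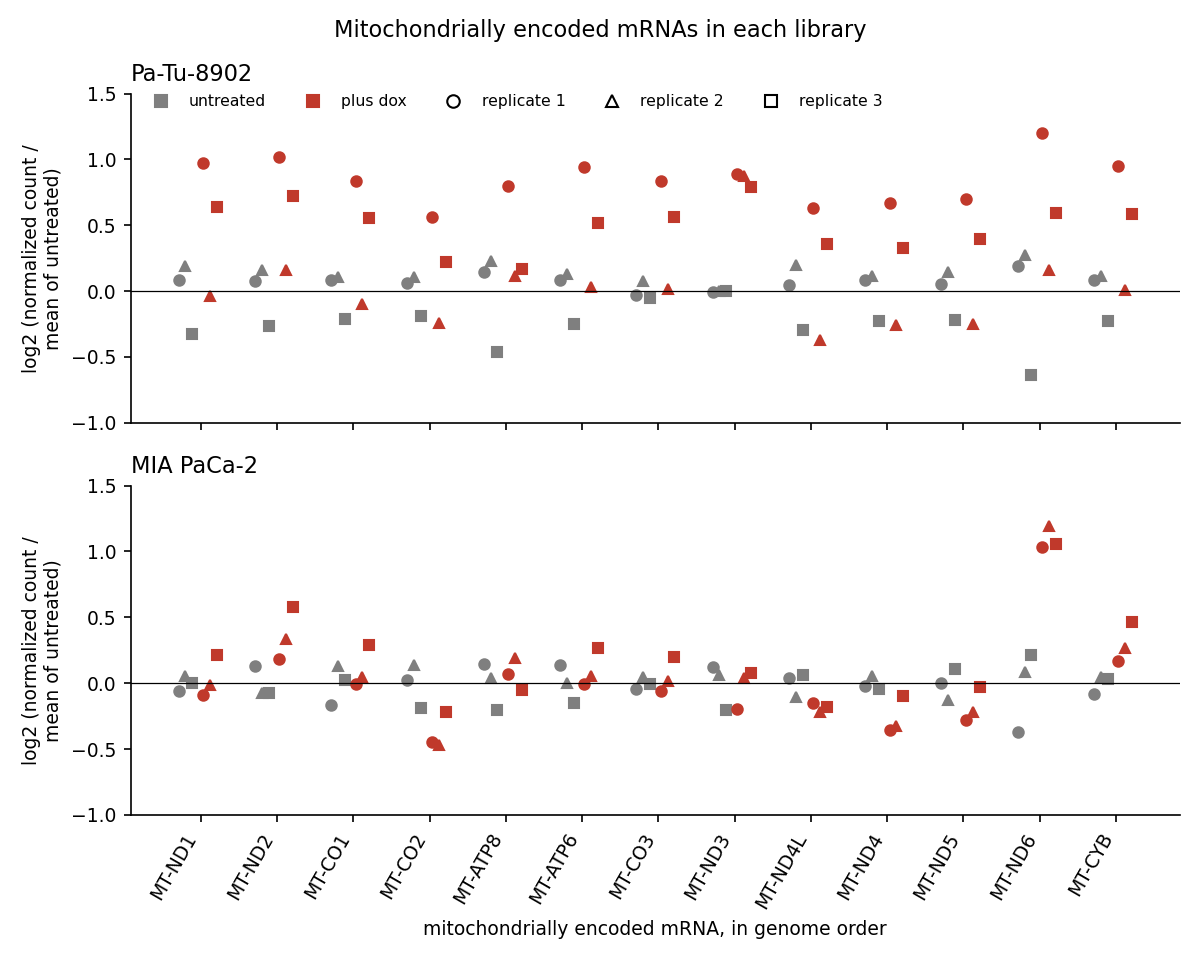
Log2 of the normalized count of each mitochondrial mRNA over its mean in the untreated libraries of the line (vertical axis), for the 13 mRNAs in genome order, with 1 point a library. In Pa-Tu-8902 plus-dox replicate 2 (red triangle) lies near the untreated points for most mRNAs but not for MT-ND3, and in MIA PaCa-2 MT-ND6 stands above the rest.

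The make-up of the mitochondrial mRNA pool shifted the same way in both lines for 4 mRNAs. Shares of one sum are not independent, since a change in any mRNA moves the shares of the others. As a share of mitochondrially encoded TPM, MT-CO2 was 9.33%, 9.30% and 9.43% in untreated and 7.62%, 7.78% and 7.61% in plus-dox Pa-Tu-8902, and 10.9%, 12.3% and 10.2% against 8.56%, 8.04% and 8.46% in MIA PaCa-2. Its share was lower in every treated library of both lines, including replicate 2 of Pa-Tu-8902. MT-ND4 likewise went from a mean of 5.94% to 5.13% in Pa-Tu-8902 and from 6.03% to 4.82% in MIA PaCa-2, and MT-ND5 from 0.975% to 0.863% and from 1.14% to 0.959%, without overlap. MT-ND2 went up without overlap, from 6.15% to 6.94% and from 4.21% to 5.22%. These shares were singled out after the values were seen and 3 libraries against 3 cannot give an exact permutation p below 0.10, so no test is given.

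**Figure D3:**
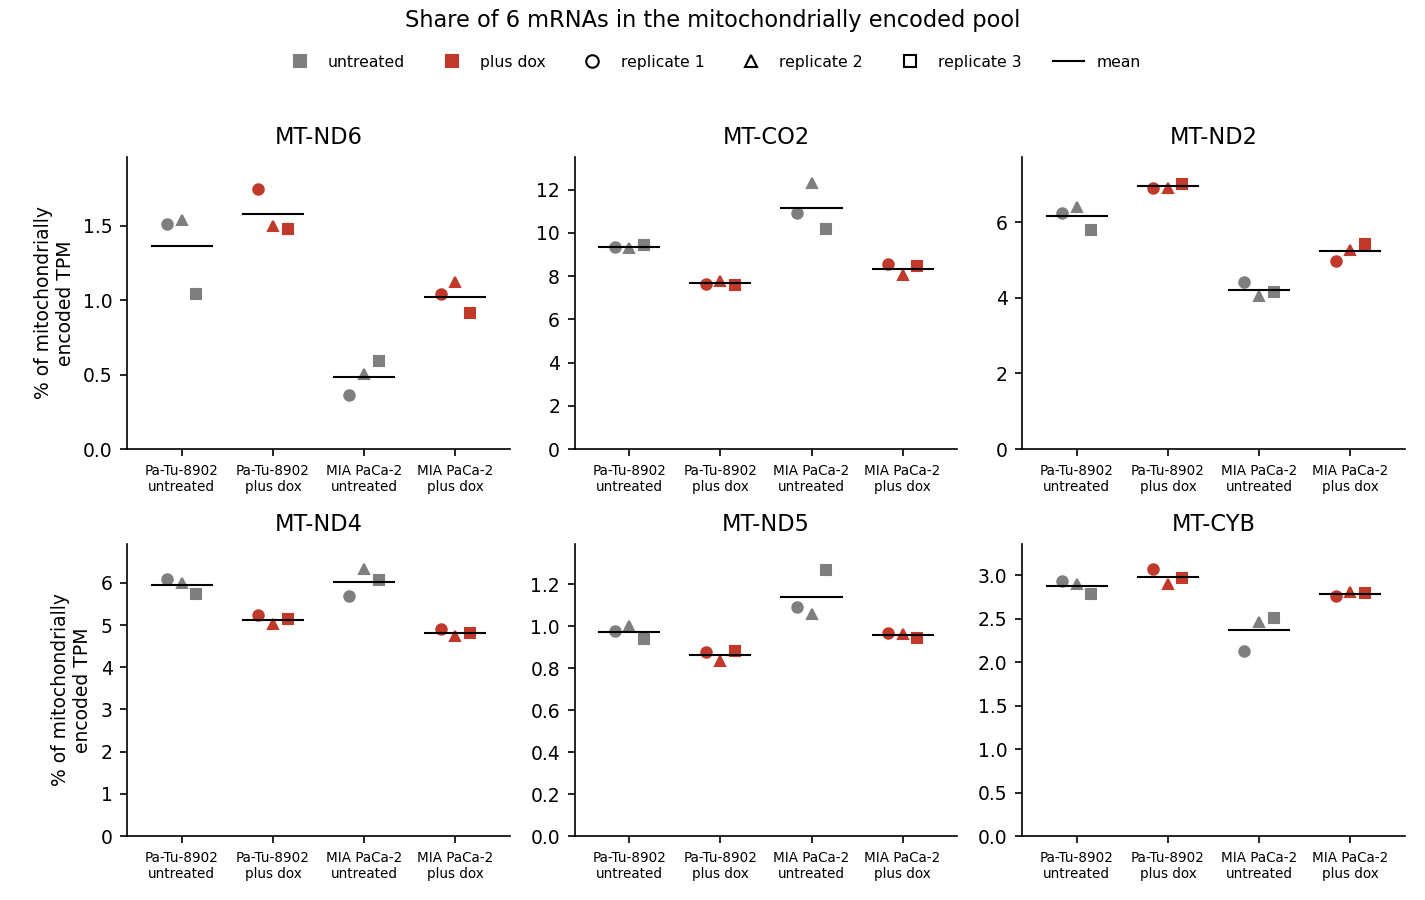
Share of 6 mRNAs in the mitochondrially encoded TPM of each library (vertical axes, %), with the mean of each group as a line. The shares of MT-CO2, MT-ND4 and MT-ND5 are lower and that of MT-ND2 higher with dox in every library of both lines, while MT-ND6 overlaps in Pa-Tu-8902.

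Nuclear copies of mitochondrial DNA can take reads from these mRNAs. Counts assigned to such pseudogenes amounted to 1.27% to 1.98% of the mitochondrial mRNA counts over the 12 libraries, most of them in MTATP6P1 (2040 to 6603 counts). The largest share was in plus-dox replicate 2 of Pa-Tu-8902.

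Among nuclear subunits of complex I, 37 of 37 were tested. In Pa-Tu-8902 4 rose and 1 fell past the adjusted p, or 13.5% against 38.1% of all genes in either direction, with a median log2 fold change of 0.08. Without plus-dox replicate 2 of Pa-Tu-8902 3 rose and 1 fell, or 10.8% against 35.7% of all genes, with a median of 0.04. In MIA PaCa-2 1 rose and 5 fell, or 16.2% against 27.2% of all genes, with a median of -0.13. Without untreated replicate 2 of MIA PaCa-2 7 rose and 8 fell, or 40.5% against 36.6% of all genes, with a median of 0.02. NDUFB4 and NDUFA2, accessory subunits, rose in Pa-Tu-8902 by 0.45 ± 0.06 (adjusted p = 1.79e-04) and 0.37 ± 0.05 (1.06e-04), and NDUFA5, also accessory, by 0.21. NDUFV3, an accessory subunit of the NADH-oxidizing arm, was the one that rose in MIA PaCa-2 (0.29 ± 0.07, adjusted p = 0.00641).

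NDUFS4, an accessory subunit whose loss is known to cause Leigh syndrome (5:53560633-53683338, plus strand), fell in both lines, by similar amounts when all libraries were kept. It had 656, 639 and 693 normalized counts untreated and 446, 484 and 412 with dox in Pa-Tu-8902, and 1466, 1902 and 1387 untreated and 1082, 1041 and 1159 with dox in MIA PaCa-2. The groups did not overlap in either line. The log2 fold changes were -0.56 ± 0.08 (adjusted p = 1.95e-04) and -0.53 ± 0.11 (adjusted p = 0.00225), just under the 1.5-fold limit. The difference between them was -0.03 ± 0.14 (adjusted p = 0.945). Leaving out 1 library gave -0.61 to -0.49 in Pa-Tu-8902, where NDUFS4 was called without untreated replicate 2 (-0.59) or plus-dox replicate 2 (-0.61). In MIA PaCa-2 it was called without untreated replicate 1 (-0.59) or 3 (-0.63) or plus-dox replicate 3 (-0.59). It was not called without untreated replicate 2, which stood apart and had the highest NDUFS4 count (1902). The size of the fall in MIA PaCa-2 therefore leans on that library.

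NDUFB1 and NDUFB5, accessory subunits of the membrane arm, were called down in MIA PaCa-2. NDUFB5 (3:179604690-179627647, plus strand) had 2052, 2405 and 1881 counts untreated and 1207, 1190 and 1331 with dox, clearly apart, with a log2 fold change of -0.76 ± 0.09 (adjusted p = 5.88e-05). NDUFB1 (14:92116122-92121917, minus strand) had 1937, 3249 and 1902 counts untreated and 1294, 1238 and 1412 with dox, so untreated replicate 2 stood far above the others. Its log2 fold change was -0.84 ± 0.17 (adjusted p = 0.00233) and -0.55 without that library (adjusted p = 4.41e-07), and it did not pass without plus-dox replicate 2 (adjusted p = 0.0108). NDUFB5 was at -0.67 without untreated replicate 2. In Pa-Tu-8902 the changes of NDUFB1 and NDUFB5 were 0.21 and -0.12 and did not pass. NDUFA7 (-0.46) and the core subunit NDUFS1 (-0.28) also fell in MIA PaCa-2.

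Complex II, which feeds electrons from succinate and has no mitochondrial gene, changed its balance of subunit mRNAs in Pa-Tu-8902. The sum of its 4 mRNAs was 632 to 654 TPM untreated and 611 to 634 TPM with dox, which overlapped. SDHA, the flavoprotein that oxidizes succinate, had 12502, 12658 and 13257 normalized counts untreated and 9590, 10275 and 9844 with dox, and fell by 0.37 ± 0.05 on the log2 scale (adjusted p = 1.06e-04). SDHC, a membrane anchor (1:161314381-161363206, plus strand), had 537, 491 and 584 untreated and 763, 728 and 759 with dox, and rose by 0.48 ± 0.08 (adjusted p = 4.07e-04). The groups were apart for both genes, in opposite directions. With effective lengths as offsets SDHC did not pass (0.32, adjusted p = 0.0582). SDHB, the iron-sulfur subunit, and SDHD, the other anchor, had -0.20 ± 0.06 (adjusted p = 0.0138) and 0.05 ± 0.05. None of the 4 passed in MIA PaCa-2, where SDHA had -0.20 ± 0.07 (adjusted p = 0.0444) and the others lay between -0.02 and 0.02.

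The membrane anchors of complex II also differed between the lines before treatment. SDHC stood at 27.0, 23.6 and 29.8 TPM in untreated Pa-Tu-8902 and at 358.1, 331.0 and 350.9 TPM in untreated MIA PaCa-2, a log2 difference of -3.82 ± 0.07 (14.1-fold, adjusted p = 2.48e-18). SDHD went the other way, with 235.2, 251.3 and 244.2 TPM against 74.9, 73.3 and 76.2 TPM, a difference of 1.68 ± 0.07 (adjusted p = 3.07e-13). SDHA and SDHB did not differ past the threshold (-0.04 and 0.10). The anchors SDHC and SDHD are known to pair one to one in the enzyme, and here SDHD mRNA was the higher of them in Pa-Tu-8902 and SDHC in MIA PaCa-2. Each of the 6 SDHC transcripts described was lower in Pa-Tu-8902, for example 10.6 ± 0.591 against 149 ± 4.66 TPM (SD, n = 3) for SDHC-201.

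**Figure D4:**
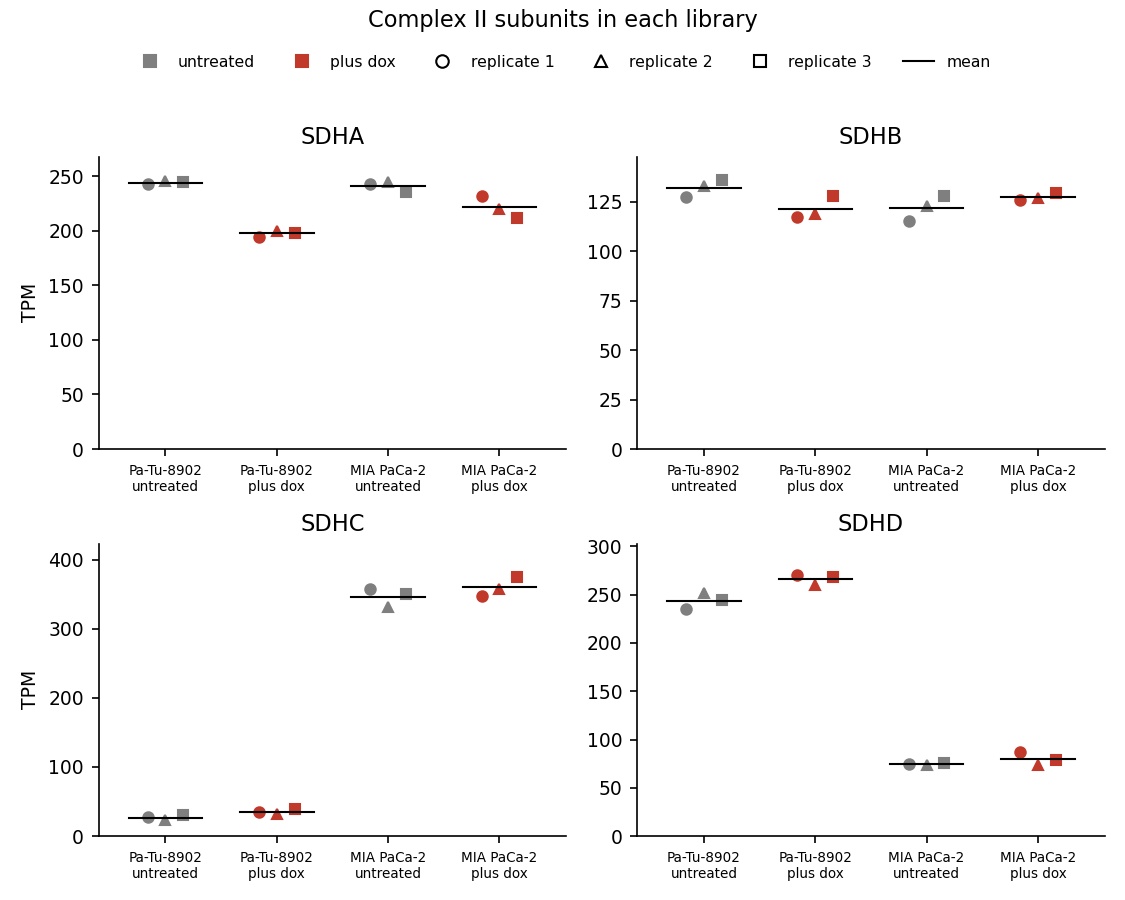
TPM of the 4 complex II subunits in each library (vertical axes from 0), with group means as lines. SDHC lies between 23.6 and 39.1 TPM in Pa-Tu-8902 and between 331.0 and 374.6 TPM in MIA PaCa-2, while SDHD shows the reverse order.

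In complex III, all 9 nuclear genes were tested. UQCR10 and UQCRB, small subunits, rose in Pa-Tu-8902 (0.36 ± 0.07, adjusted p = 9.13e-04, and 0.24 ± 0.06, adjusted p = 0.00409), and none fell. These 2 are 22.2% of the 9, against 38.1% of all genes past the adjusted p in either direction. The share in MIA PaCa-2 was 11.1%, or 1 of 9, against 27.2% of all genes. In MIA PaCa-2 UQCRFS1, the Rieske iron-sulfur protein, fell from 6132, 7848 and 5889 to 4500, 4278 and 5043 normalized counts, so every treated library was below every untreated one (-0.52 ± 0.10, adjusted p = 0.00207). Without untreated replicate 2 its log2 fold change was -0.39 (adjusted p = 2.24e-05), and without plus-dox replicate 2 it did not pass (adjusted p = 0.0114). UQCRHL is a near-identical copy of UQCRH, and reads shared between them make both values uncertain.

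Among nuclear subunits of complex IV in Pa-Tu-8902, 12 of 13 tested were higher with dox, with a median of 0.20. Of the 13, 5 rose and 0 fell past the adjusted p, or 38.5% against 38.1% of all genes in either direction. Without plus-dox replicate 2 these counts were unchanged, with a median of 0.15, and 35.7% of all genes were past the adjusted p. COX7A2L, known as a factor that helps complexes III and IV join into supercomplexes (2:42333546-42425088, minus strand), had 1858, 1894 and 1952 normalized counts untreated and 2712, 2783 and 2644 with dox, with a wide gap between the groups. The log2 fold change was 0.51 ± 0.05 (1.43-fold, adjusted p = 9.05e-06). In MIA PaCa-2 it had 2414, 2917 and 2273 counts untreated and 2961, 2918 and 2995 with dox, and the change of 0.22 ± 0.09 did not pass (adjusted p = 0.0554), although it did without untreated replicate 2 (0.33, adjusted p = 5.18e-05). The others that rose in Pa-Tu-8902 were COX6C (0.35), NDUFA4 (0.34), now assigned to complex IV, COX5B (0.33) and COX7C (0.26). In MIA PaCa-2 0 of 12 nuclear complex IV subunits passed (27.2% of all genes did), with a median of 0.01. An unadjusted p below 0.05 was found for 2 of the 12 (16.7%, against 49.6% of all genes). In the fit that left out untreated replicate 2, 4 of the 12 rose and 0 fell past the adjusted p (33.3%, against 36.6% of all genes in either direction), 9 were higher with dox, and the median was 0.15.

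Paralogs of complex IV that are restricted to certain tissues or induced by hypoxia were absent or near the floor of detection. COX4I2, COX7A1 and COX7B2 had no count in any library, where a count of 0 allows up to 3 counts. COX6A2 and COX8C had at most 0.867 and 2.2 normalized counts in a library. NDUFA4L2, known as a hypoxia-induced copy of NDUFA4, had 9.73, 13.4 and 5.63 counts untreated and 3.88, 2.37 and 8.46 with dox in Pa-Tu-8902, and 3.71, 1.03 and 0.986 untreated and 11, 10.3 and 6.07 with dox in MIA PaCa-2. It was too low for the test, as was ATP5MGL of complex V (at most 4.4). COX6B2, a testis form, entered the test only in Pa-Tu-8902, through its untreated libraries (18.2, 12.4 and 16.9 counts, against 7.76, 3.16 and 7.41 with dox), and did not pass (-1.39 ± 0.43, adjusted p = 0.02). These limits cover counting error only.

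In complex V, the genes for subunit c, which forms the rotating ring of the ATP synthase, held the largest rise of Pa-Tu-8902 and a called fall in the other line. ATP5MC1, ATP5MC2 and ATP5MC3 are known to encode the same mature peptide behind different import sequences. ATP5MC2 (12:53632726-53677408, minus strand) had 1781, 1692 and 1937 normalized counts in untreated and 3542, 3987 and 3688 in plus-dox Pa-Tu-8902, so every treated library lay far above every untreated one. The log2 fold change was 1.05 ± 0.07 (2.08-fold, adjusted p = 4.8e-07). In MIA PaCa-2 ATP5MC2 had 1843, 2299 and 1815 counts untreated and 2100, 1894 and 1980 with dox (0.0047 ± 0.0908, adjusted p = 0.97).

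ATP5MC1 (17:48892765-48895871, plus strand) moved in the other line instead. It had 2173, 2245 and 2266 counts untreated and 2259, 2517 and 2160 with dox in Pa-Tu-8902, which overlapped (0.05 ± 0.06), but 1253, 1600 and 1287 untreated and 843, 849 and 894 with dox in MIA PaCa-2. There it was called down (-0.68 ± 0.09, 1.60-fold, adjusted p = 1.8e-04) and was at -0.56 without untreated replicate 2. ATP5MC3, the most abundant of the 3, did not pass in either line (0.19 ± 0.06, adjusted p = 0.018, and -0.13 ± 0.10).

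Summed over the 3 genes, subunit c mRNA was 938 ± 21.6 TPM untreated and 1200 ± 34.6 TPM with dox in Pa-Tu-8902, and 930 and 854 TPM in MIA PaCa-2. ATP5MC2 made up 14.0 ± 0.778% of it untreated and 22.9 ± 0.400% with dox in Pa-Tu-8902 and 15.8% and 18.7% in MIA PaCa-2. ATP5MC1 went from 32.8% to 27.5% and from 19.9% to 14.5%. ATP5MC3 went from 53.2% to 49.5% and from 64.3% to 66.8%, in opposite directions. These shares are tied to one another, and the tests above give the genes that changed, ATP5MC2 in Pa-Tu-8902 and ATP5MC1 in the other line. The rise of ATP5MC2 in Pa-Tu-8902 lay in its 2 main transcripts, ATP5MC2-202 (51.6 to 126 TPM) and ATP5MC2-204 (59.7 to 130 TPM).

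The promoters of these paralogs, 250 bases before to 50 after the start in RefSeq (GRCh38.p14), are shown so that the starts of genes with one product and different responses can be compared. They are ATP5MC1 (chr17:48892537-48892836, plus strand), the first of 3 listed starts of ATP5MC2 (chr12:53676034-53676333, minus strand) and, for contrast, ATP5MD (chr10:103396426-103396725, minus strand, listed there as ATP5MK). Capitals mark ETS motif letters.
ATP5MC1: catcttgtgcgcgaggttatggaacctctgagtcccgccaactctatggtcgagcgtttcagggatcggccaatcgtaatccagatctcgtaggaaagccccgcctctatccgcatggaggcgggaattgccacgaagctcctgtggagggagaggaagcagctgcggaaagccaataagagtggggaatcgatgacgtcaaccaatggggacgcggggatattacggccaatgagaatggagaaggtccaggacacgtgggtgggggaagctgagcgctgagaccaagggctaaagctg
ATP5MC2: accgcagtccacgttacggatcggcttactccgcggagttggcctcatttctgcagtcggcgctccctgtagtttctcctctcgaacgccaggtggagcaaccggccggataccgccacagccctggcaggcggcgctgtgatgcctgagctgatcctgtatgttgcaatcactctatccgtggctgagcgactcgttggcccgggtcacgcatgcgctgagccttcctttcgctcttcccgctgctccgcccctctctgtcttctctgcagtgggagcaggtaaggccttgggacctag
ATP5MD: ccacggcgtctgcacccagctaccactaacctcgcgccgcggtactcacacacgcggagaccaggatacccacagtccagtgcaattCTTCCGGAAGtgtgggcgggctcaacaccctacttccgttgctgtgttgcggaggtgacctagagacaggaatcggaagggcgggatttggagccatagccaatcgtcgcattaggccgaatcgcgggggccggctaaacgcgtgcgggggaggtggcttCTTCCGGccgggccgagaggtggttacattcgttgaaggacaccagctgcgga
Each window was searched on both strands for the NRF1 motif, the ETS motif CCGGAAG and the YY1 motif AAGATGGCG. The windows of ATP5MC1 and ATP5MC2 held 0 matches and that of ATP5MD held 3 of the ETS motif, of which 2 overlap on opposite strands. Over the 84 promoters listed for 71 of the subunits, 20.2% held the NRF1 letters, 26.2% the ETS letters and 11.9% the YY1 letters. Over all 35116 promoters of the same length the shares were 5.78%, 10.3% and 1.75%. A match is a description of the letters and not of binding.

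Nuclear complex V genes past the adjusted p numbered 3 of 19 in each line, or 15.8%. The share of all genes past it was larger, at 38.1% for Pa-Tu-8902 and 27.2% for the other line. Without untreated replicate 2 of MIA PaCa-2, 1 rose and 5 fell there, or 31.6% against 36.6% of all genes. ATP5MD, a small membrane subunit (10:103389041-103396492, minus strand), had 2382, 3637 and 2293 counts untreated and 1708, 1629 and 1789 with dox in MIA PaCa-2, where untreated replicate 2 was again the highest by far. It was called down (-0.70 ± 0.15, adjusted p = 0.00275) and stood at -0.46 without that library. Without plus-dox replicate 2 or 3 it did not pass (adjusted p = 0.0123 and 0.0104). ATP5IF1, the inhibitor that stops the enzyme from hydrolysing ATP, fell in both lines. It had 2105, 2052 and 2084 counts untreated and 1791, 1863 and 1749 with dox in Pa-Tu-8902 (-0.21 ± 0.05, adjusted p = 0.00428), and 2097, 2638 and 1974 untreated and 1613, 1465 and 1533 with dox in MIA PaCa-2 (-0.54 ± 0.10, adjusted p = 0.0012). The groups were apart in both lines, but with effective lengths as offsets the Pa-Tu-8902 fall did not pass (adjusted p = 0.0182), nor did it without untreated replicate 1 or 2 or plus-dox replicate 1 or 3 (0.0134 to 0.0375). In MIA PaCa-2 the highest untreated ATP5IF1 count was that of replicate 2, which stood apart. The fall there was under 1.5-fold with and without that library. ATP5PD of the peripheral stalk rose in Pa-Tu-8902 (0.29).

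Only 3 subunits passed the adjusted p in both lines, namely MT-ND2, NDUFS4 and ATP5IF1, each with the same direction in both. They are 15.8% of the 19 of Pa-Tu-8902, 21.4% of the 14 of MIA PaCa-2 and 3.16% of the 95 tested in both. Of all 13109 genes tested in both lines, 15.7% passed in both, or 36.1% of those of Pa-Tu-8902 and 51.7% of those of MIA PaCa-2, and 84.2% of these had the same direction.

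The lines were then compared in their response to dox, by the difference of the log2 fold changes in a fit of all 12 libraries. In 85 of 97 subunits the change was more positive in Pa-Tu-8902, with a median difference of 0.24, against -0.0015 over all genes. In all, 6 passed the adjusted p with a 1.5-fold difference (10.4% of all genes did, in either direction), all more positive in Pa-Tu-8902. By adjusted p ATP5MC2 came first, at 1.05 ± 0.12 (adjusted p = 5.62e-06), then MT-ND3 and ATP5MC1 (0.73 ± 0.12, adjusted p = 1.71e-04). NDUFB5 (0.64 ± 0.11, adjusted p = 2.8e-04), NDUFB1 (1.05 ± 0.22, adjusted p = 0.00147) and ATP5MD (0.66 ± 0.18, adjusted p = 0.00989) followed. Without untreated replicate 2 of MIA PaCa-2 the median difference was 0.11, with 70 of 97 positive, and 4 were called (4.12%, against 10.5% of all genes). These were ATP5MC2 (0.95), MT-ND3 (0.86), NDUFB1 (0.77) and ATP5MC1 (0.63). Without plus-dox replicate 2 of Pa-Tu-8902, 13 were called (13.4%, against 10.2% of all genes), of which 9 were mitochondrial. Without both libraries 10 were called (10.3%, against 10.6% of all genes), of which 8 were mitochondrial, with ATP5MC2 (0.90), MT-ND3 (0.84) and NDUFB1 (0.74) among them. In that fit 66 of 97 were positive, with a median difference of 0.08. The nuclear median was 0.05, against 0.23 with all libraries, and the mitochondrial one was 0.65, against 0.45. With effective lengths as offsets NDUFB5 (0.40, adjusted p = 0.0411) and ATP5MD (0.63, adjusted p = 0.0211) did not pass. ATP5MD also did not pass without any 1 of the 3 untreated libraries or plus-dox replicate 2 of Pa-Tu-8902, or any 1 plus-dox library of MIA PaCa-2 (adjusted p from 0.0138 to 0.0232).

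**Figure D5:**
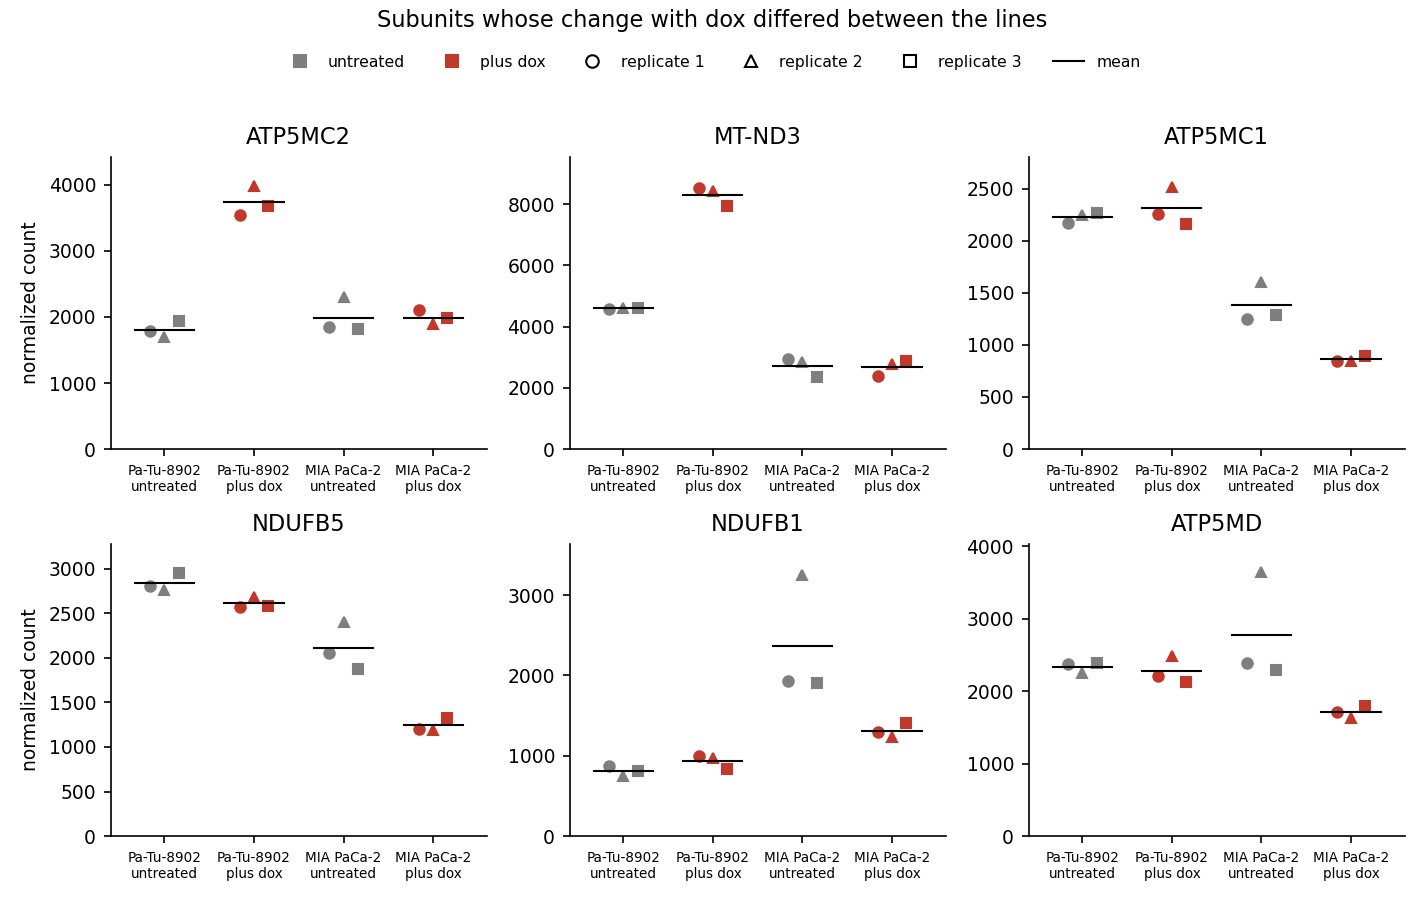
Normalized counts, scaled within each line, of the 6 subunits whose change with dox differed between the lines, with 1 point a library and group means as lines. ATP5MC2 and MT-ND3 are higher with dox in every Pa-Tu-8902 library, and ATP5MC1, NDUFB5, NDUFB1 and ATP5MD are lower with dox in every MIA PaCa-2 library, where untreated replicate 2 (grey triangle) is the highest for these 4.

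Untreated, the lines differed in 42 of 97 subunits, 18 higher and 24 lower in Pa-Tu-8902 (57.5% of all genes were called, in either direction). Only 2 of these were mitochondrial, MT-ND6 and MT-ND3 (0.64). After SDHC, the largest deficits of Pa-Tu-8902 were in the complex I accessory subunits NDUFB11 (-1.68), NDUFB1 (-1.66), NDUFA1 (-1.51) and NDUFS4 (-1.38). Among well-detected genes, the largest excesses were the complex I accessory subunits NDUFA9 (1.80) and NDUFB9 (1.77), and ATP5MG of the ATP synthase membrane part (1.71). NDUFC2-KCTD14 and COX6B2 were also called higher, but were near the floor in MIA PaCa-2, so their fitted differences are poorly determined. NDUFC2-KCTD14, a read-through gene that shares reads with NDUFC2, had 44.3, 106 and 33.9 counts in untreated Pa-Tu-8902 and 0, 5.81 and 0 in MIA PaCa-2, and its fitted log2 difference was 4.08 to 8.90 when 1 library or both that stood apart were left out. COX6B2 had 0.928, 1.03 and 4.93 counts in untreated MIA PaCa-2, and its difference was 2.23 to 3.71. DESeq2 did not call NDUFC2-KCTD14 (adjusted p = 0.0498). Without untreated replicate 2 of MIA PaCa-2 the split was 22 higher and 21 lower.

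Several of these genes shared their direction with the genes around them. Of the 42 genes tested within 1 Mb of ATP5MG 37 were also higher in Pa-Tu-8902, with a median log2 difference of 1.79, near its own 1.71. The 10 neighbours of NDUFA9 had a median of 1.68 and the 15 of SDHD a median of 1.18, while the 20 of NDUFA1 and 25 of NDUFB11, both on the X chromosome, had medians of -0.89 and -1.12. NDUFB9 lay at 1.77 among 14 neighbours with a median of 2.04. SDHC differed from its surroundings, at -3.82 against a median of -0.51 over 28 neighbours, and NDUFS4 lay at -1.38 among 8 neighbours with a median of 0.27. NDUFB1 lay at -1.66 among 13 neighbours with a median of -0.42, of which 8 had its direction. COX6B2, near the floor in MIA PaCa-2, lay at 2.60 among 44 neighbours with a median of -0.30. These are descriptions of neighbouring genes, which are not independent of each other, and copy number was not measured.

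The machinery that builds and serves the chain was read from lists written for this purpose, with the same test as the subunits. As background for the shares of the lists, 38.1% of all genes tested were past the adjusted p in either direction in Pa-Tu-8902, and 27.2% were in MIA PaCa-2. Of 47 assembly factors, 6 rose and 9 fell in Pa-Tu-8902 (31.9%) and 4 rose and 7 fell in MIA PaCa-2 (23.4%), with medians of -0.07 and -0.12. BCS1L, which inserts the Rieske protein into complex III, fell in Pa-Tu-8902 (-0.40, adjusted p = 7.55e-05), with 0.11 in MIA PaCa-2 (adjusted p = 0.31), and the difference of -0.51 passed (adjusted p = 7.17e-04). COX10, which makes heme for complex IV, rose in both lines (0.30, adjusted p = 0.00357, and 0.66, adjusted p = 5.4e-05).

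Of 18 genes of mitochondrial DNA upkeep and transcription, 0 rose and 5 fell in Pa-Tu-8902 (27.8%) and 2 rose and 1 fell in MIA PaCa-2 (16.7%). TFAM, which packages mitochondrial DNA and starts its transcription, fell in both (-0.45, adjusted p = 1.81e-05, and -0.36, adjusted p = 0.00101). Of 19 genes of mitochondrial RNA processing and stability, 1 rose and 4 fell in Pa-Tu-8902 (26.3%), and 4 rose and 0 fell in MIA PaCa-2 (21.1%), where 11 had an unadjusted p below 0.05 (57.9%, against 49.6% of all genes). The gene that rose in Pa-Tu-8902 was FASTK, one form of which is known to stabilise MT-ND6 mRNA, at 0.58 (adjusted p = 3.85e-06), and it rose in MIA PaCa-2 as well (0.46, adjusted p = 2.99e-04).

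Of 16 electron carriers and enzymes of coenzyme Q synthesis, 4 rose and 2 fell in Pa-Tu-8902 (37.5%) and 1 rose and 4 fell in MIA PaCa-2 (31.2%). PDSS2, part of the enzyme that makes the coenzyme Q tail, fell in both, by -0.92 (adjusted p = 5.33e-06) and -1.73 (adjusted p = 1.77e-07) on the log2 scale, and the fall was larger in MIA PaCa-2 (difference 0.80, adjusted p = 1.08e-04). Of 10 tested regulators of respiratory genes, 2 rose and 3 fell in Pa-Tu-8902 and 1 rose and 1 fell in MIA PaCa-2. HIF1A, the hypoxia regulator, rose in Pa-Tu-8902 (0.62, adjusted p = 2.68e-06), with 0.05 in MIA PaCa-2 (adjusted p = 0.69), and MYC rose in MIA PaCa-2 (0.59, adjusted p = 1.2e-05), with 0.14 in Pa-Tu-8902 (adjusted p = 0.073). The difference between the lines was past the adjusted p for both, at 0.57 for HIF1A (adjusted p = 6.75e-04) and -0.45 for MYC (adjusted p = 7.04e-04).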

How the data were processed

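Strand-specific poly(A) RNA-seq of 12 libraries was analysed from the tables the authors deposited. The authors trimmed reads with Trimmomatic 0.39, aligned them to GRCh38 with STAR 2.5.2a as called by RSEM 1.3.1, and estimated gene values on GENCODE annotation. The deposited expected counts are unfiltered and not normalized (5.34% are not whole numbers), and the deposited TPM values are corrected for length and library size. Groups came from the sample titles. The labels give the dox concentration as 1 µM/mL and the methods of the study in another unit.

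Counts were rounded, scaled by TMM and tested with edgeR 4.0.16 (glmQLFit, glmQLFTest) in R 4.3.3, with 1 fit a line, over genes that reached 10 counts in 3 or more libraries, and Benjamini-Hochberg adjustment over all genes tested. Differences between lines were contrasts of 1 fit of all 12 libraries. The thresholds of the study were kept, 0.01 for the adjusted p and 1.5 for the fold change. Normalized counts are counts divided by the effective library size relative to the mean of the line. Positions came from GENCODE release 44 and promoters from RefSeq. The 104 genes and the lists were chosen with earlier results of these data known, so no set test and no p over a list was computed.

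The genes named are GOT1, the 13 mitochondrial mRNAs, called subunits, the largest rise and fall past the adjusted p in each complex, the largest differences between untreated lines, complex II, tissue-restricted paralogs, and in each list the gene with the smallest adjusted p. Other subunits past the adjusted p were named after their values were seen. One result of this kind is not reported here. The other settings tried were DESeq2 1.42.0, size factors of DESeq2 in edgeR, scaling without mitochondrial genes, no filter, effective lengths as offsets, a replicate block, 1 fit of all libraries, and each library left out. Leaving out both libraries that stood apart was chosen after seeing the data. No library was duplicated (chi-square between replicates, per degree of freedom, 2.25 to 27.3). The procedure was tested on simulated data.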

Additional observations from a re-analysis of the deposited data

Results flagged for a closer look

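For 6 subunits the change with dox differed between the lines when the difference itself was tested in edgeR's fit of all 12 libraries, with an adjusted p below 0.01 and a difference of at least 1.5-fold. The difference of the log2 fold changes, Pa-Tu-8902 minus MIA PaCa-2, was 1.05 for ATP5MC2 and 0.87 for MT-ND3, where Pa-Tu-8902 libraries were higher with dox. It was 1.05 for NDUFB1, 0.73 for ATP5MC1, 0.66 for ATP5MD and 0.64 for NDUFB5, where MIA PaCa-2 libraries were lower with dox. ATP5MC2, MT-ND3 and NDUFB1 also passed without both libraries that stood apart (0.90, 0.84 and 0.74). ATP5MC1, NDUFB5 and ATP5MD were then past the adjusted p but under 1.5-fold (0.56, 0.54 and 0.36).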

How the results depend on the processing

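Over the alternatives, 173 of the summary values stayed within the limits set for them and 15 moved. Of the 173, 2 medians of MIA PaCa-2 changed sign, the nuclear one to 0.0252 without untreated replicate 2 and the mitochondrial one to -0.0308 without plus-dox replicate 3. Of the values of named genes, 984 kept their side of the threshold, 49 lost it, 32 gained it and 16 changed sign. In Pa-Tu-8902 the 3 called subunits became 5 and the 19 past the adjusted p became 40 without a filter on low counts, and leaving out 1 library gave 2 to 10 called (10 without plus-dox replicate 2) and 11 to 27 past the adjusted p. In MIA PaCa-2 the 14 past the adjusted p became 22 under DESeq2, 31 without a filter and 9 with effective lengths as offsets, and leaving out 1 library gave 4 (without plus-dox replicate 2) to 33 (without untreated replicate 2). The 5 called there became 2 without untreated replicate 2, 3 without plus-dox replicate 2 and 10 without untreated replicate 3, a range of 2 to 10. The 6 differences between the lines became 4 to 13 when 1 library was left out and 10 without both libraries that stood apart. The cause of these moves was not tested. The 42 called between untreated lines became 39 to 43 over all alternatives, and 40 to 43 when 1 library was left out. Replicate numbers did not pair the libraries, with residual correlations of same-numbered libraries between -0.093 and 0.131. A replicate block gave Pa-Tu-8902 3 called and 18 past the adjusted p, MIA PaCa-2 5 and 11, and 5 differences between the lines, ATP5MD being lost (adjusted p = 0.0161). Under the block SDHB of Pa-Tu-8902 gained the threshold (0.00855), and MT-CO2, MT-CYB and MT-ND2 of MIA PaCa-2 lost it. The values that changed sign were all small and uncalled, in MIA PaCa-2. With effective lengths as offsets MT-ND3 was at 0.0719, SDHB at -0.0039 and SDHD at 0.0277. Leaving out 1 library gave -0.121 to 0.0518 for MT-ND3, -0.0601 to 0.0955 for MT-ND1, -0.0308 to 0.0991 for MT-CO3, -0.031 to 0.151 for MT-ATP8, -0.0465 to 0.101 for SDHB, -0.0517 to 0.0024 for SDHC and -0.0736 to 0.0537 for SDHD. Libraries of 26226537 counts or more leave the low paralogs, not the abundant subunits, limited by depth.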
